A study of Mus musculus with 24 samples.

Results

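C2C12, a single line of mouse skeletal myoblasts, leaves the cell cycle and forms myotubes once serum is lowered. The comparison described here is between C2C12 cells at 50% confluency (Day -1) and at 90% confluency (Day 0), before differentiation was induced. All arrays that the labels place at these 2 time points were taken, 3 at Day -1 and 3 at Day 0, of 24 arrays that cover 8 time points of differentiation. Both groups were in the same growth medium, high-glucose DMEM with 10% FBS and 1% penicillin/streptomycin at 37 °C and 5% CO2, and the labels name no added agent or genetic change. The groups differ in confluency and in a further day of culture, possibly also in the age of the medium, and these cannot be told apart. Nothing in the sources says whether the 3 arrays of a group hold RNA of different cultures, and the spread behind each p-value may be technical. In such bulk RNA, fewer cells of a kind and less RNA per cell cannot be told apart.

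Myoblasts divide under growth factors, and they hold the muscle programme in check through the Id proteins, which bind the E protein partners of MYOD and MYF5. When division slows, MYOD and its partners turn on myogenin, which with the MEF2 factors activates the genes of the contractile apparatus, while CDK inhibitors hold the cells out of the cycle. Dense cultures also have more contact between cells, which acts on cadherins and on the Hippo pathway and its effectors YAP and TEAD, and genes of the ATF4 response and of sterol synthesis are known to follow the supply of amino acids and of lipids.

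Levels are GC-RMA intensities on a linear scale in arbitrary units, and a change is the difference of mean log2 intensities, Day 0 minus Day -1. A probe set was tested where its mean was at least 100 in either group. Each gene was represented by its most significant probe set in limma, and it passed where the Benjamini-Hochberg adjusted p was under 0.05. Of 7366 genes tested, 57% passed, of which 2144 rose (29.1% of those tested) and 2055 fell (27.9%), with a median change of 0.02 over all genes on the log2 scale. Only 438 of them rose by at least 2-fold (5.95%) and 357 fell as much (4.85%). The intensities of the 2 groups did not overlap for 66.7% of genes, 34.5% higher on Day 0 and 32.3% lower. With the brightest probe set of each gene instead, 26.5% rose and 25.1% fell. Pearson's r between log2 intensities of 2 arrays lay between 0.977 and 0.993 within Day -1, between 0.993 and 0.996 within Day 0, and between 0.889 and 0.927 across the groups. Replicate 2 of Day -1 had the 2 lowest correlations within its group. With 3 arrays a group, 0.1 is the smallest p of an exact permutation test, and the calls for single genes are those of limma.

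The genes were described through 43 lists with 1055 members, of which 1002 had a probe set assigned to them alone and 679 reached the level for a test. Many genes of the muscle lists reached it on 1 day only, and such a gene had to differ. For several lists the counts are also given for genes at 100 or more on both days. Over all 6403 of these genes, 26.9% rose and 25.8% fell. The share of a list that passed in either direction has to be read against the 57% of all genes. It was near that share for oxidative metabolism (51.4%), fusion and adhesion (52.4%), the Hippo pathway (57.1%) and the CDK inhibitors (57.1%), and it was 96.7% for mitosis, 92.3% for cholesterol and fatty acid synthesis and 90.6% for the ATF4 response.

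**Figure D1:**
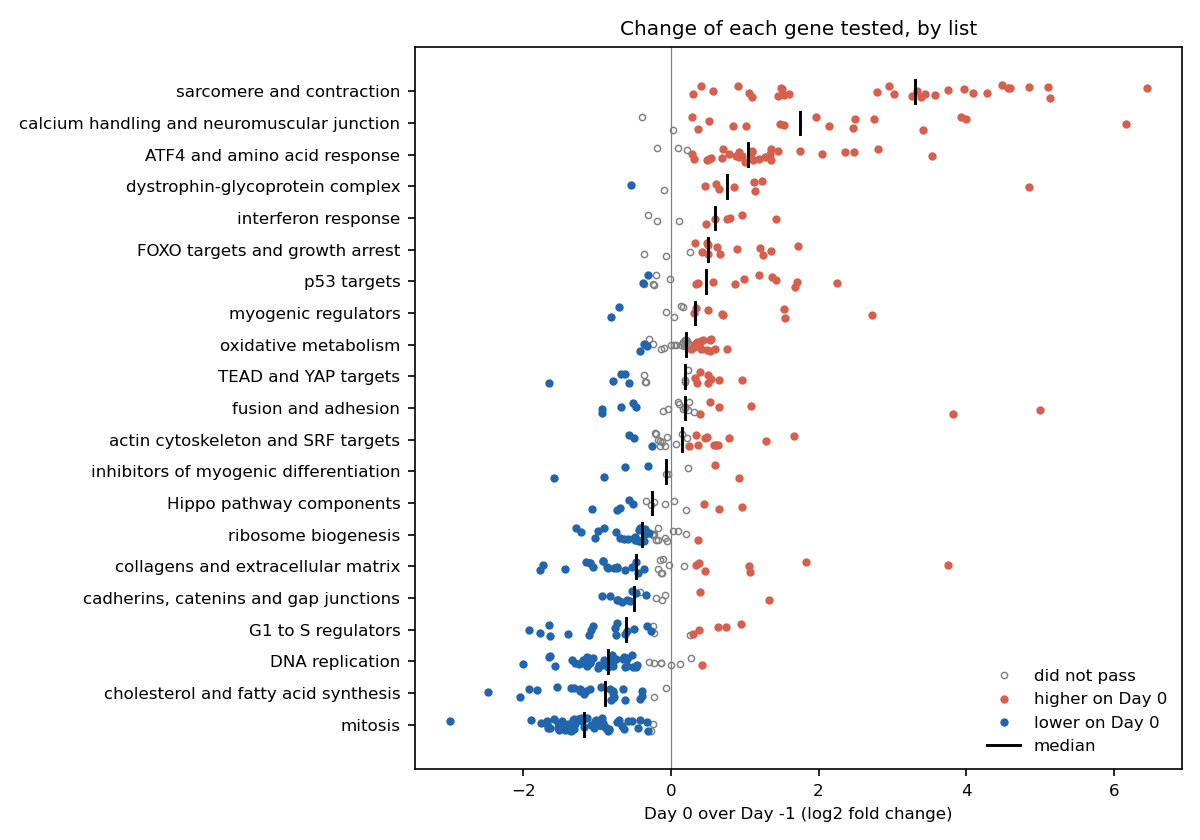
Change of each gene tested from Day -1 to Day 0 (log2 fold change, x axis) in 21 of the lists (y axis, ordered by median). Filled points passed at an adjusted p under 0.05, open points did not, and the vertical bar is the list's median. Of the lists drawn, the sarcomere list has the highest median (3.30) and the mitosis list the lowest (-1.17).

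The largest rises were of genes near the lower end of the scale on Day -1. Car6 (ID 12353), a secreted carbonic anhydrase, had intensities of 2.96, 1.93 and 1.94 on Day -1 and 525, 551 and 409 on Day 0. Its log2 change of 7.78 (SE 0.18, limma adjusted p = 1.19e-09) came to 3.30 once values under 50 were raised to 50. Muscle genes made up most of the rest of the 15 largest rises. They were Smpx, Myoz2, Myl4 and Mybph of the sarcomere, Chrng of the embryonic acetylcholine receptor, Sgca of the dystrophin complex, Mymx of cell fusion, the muscle isoforms Cox6a2 and Ckm, the oxygen carrier Mb, and Hjv, a BMP co-receptor of muscle and liver. Their log2 changes lay between 4.84 (Mybph) and 6.45 (Smpx). With values under 50 raised to 50 and the probe set chosen anew they lay between 1.01 (Myoz2) and 4.84 (Mybph), with 1.52 for Ckm, 1.58 for Cox6a2, 2.41 for Mb and 3.01 for Smpx.

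The remaining 3 of these rises are not known as muscle structural genes. Vldlr, a lipoprotein receptor, was at 5.68, 3.84 and 4.34 on Day -1 and 191, 216 and 187 on Day 0, and Fgf21, a hormone released by stressed muscle and liver, at 4.20, 4.04 and 2.02 on Day -1 and 126, 131 and 132 on Day 0. Cdsn, an adhesion protein known from the epidermis, was at 20.8, 11.03 and 6.42 on Day -1 and 474, 533 and 391 on Day 0. None of the 3 had an array of one day within the range of the other, and their log2 changes were 5.44, 5.31 and 5.34, or 1.98, 1.37 and 3.21 with values under 50 raised to 50.

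The largest falls included genes that were well expressed in sparse cells. Slc14a1, a urea transporter, was at 374, 427 and 383 on Day -1 and 18.9, 22.8 and 21.2 on Day 0, with a log2 change of -4.24 (SE 0.11, adjusted p = 3.09e-09) that came to -2.98 with values under 50 raised to 50. Nefm, a neurofilament subunit, was at 1424, 1440.2 and 1392 on Day -1 and 141, 140.1 and 153 on Day 0, and its partner Nefl at 4759, 5128 and 5078 on Day -1 and 927, 982 and 1175 on Day 0. The falls were 9.82-fold for Nefm and 4.88-fold for Nefl, with no overlap between the days. Others were Hdc, which makes histamine (115 to 8.27), Lrp8, a receptor for reelin (263 to 20.7), Htr1b, a serotonin receptor (175 to 22.4), the receptor tyrosine kinase Mertk (117 to 19.8), the lipid transporter Mfsd2a (162 to 25.1), and Igsf5, Atp10d, Lrr1 and Polr3g. The DNA repair and replication genes Fancb, Wdhd1 and Dna2 and the condensin subunit Smc2 completed the 15. With values under 50 raised, the log2 changes of these 13 genes lay between -2.39 (Lrp8) and -1.04 (Polr3g), with -1.20 for Hdc against -3.91 before, and all passed. On their brightest probe sets, Smc2 and Lrr1 had log2 changes of -1.39 and -1.16, against -2.99 and -2.48 here.

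Of the myogenic regulators, 14 of 20 were tested, of which 8 rose and 2 fell, and 5 rose and 2 fell among the 11 at 100 or more on both days. Myod1 (ID 17927), the factor that commits cells to muscle, was at 658, 657 and 727 on Day -1 and 855, 844 and 888 on Day 0. Myf5 (ID 17877), its relative in myoblasts, was at 671, 583 and 636 on Day -1 and 806, 840.5 and 1044 on Day 0. Both were already high in sparse cells and rose little, by 0.34 (SE 0.10, limma adjusted p = 0.0142) and 0.50 (SE 0.12, adjusted p = 0.00663) on the log2 scale. The Myod1 call was lost without Day 0 replicate 3 (limma adjusted p = 0.0697), and that of Myf5 with no level filter (0.0531).

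Myog (ID 17928), the factor that starts terminal differentiation, changed far more. Its intensity was 485, 319 and 406 on Day -1 and 2698, 2577 and 2588 on Day 0, a 6.59-fold rise (log2 change 2.72, SE 0.14, adjusted p = 5.21e-07), with a mean of 2621 ± 67.02 on Day 0 (SD, n = 3). Mef2c, a MEF2 factor that acts with myogenin, was at 30.5, 43.6 and 29.8 on Day -1 and 118, 93.9 and 89.7 on Day 0, which brought it only to the level for a test (log2 change 1.55, SE 0.16, adjusted p = 3.95e-05). Mef2a rose by 0.70 (adjusted p = 6.75e-04), and Smyd1, a muscle histone methyltransferase, by 1.53 (adjusted p = 2.24e-05) on the log2 scale. The regulators that fell were Eya1, a phosphatase and coactivator (246, 359 and 303 on Day -1 and 203, 151 and 161 on Day 0), and Six4, a homeobox factor that such coactivators bind (256, 230.2 and 288 on Day -1 and 184, 159.6 and 134 on Day 0). Their groups did not overlap, and the log2 changes were -0.81 and -0.70, the latter -0.36 on the brightest probe set. Tcf3, which encodes the E proteins E12 and E47, had 434, 395 and 342 on Day -1 and 345, 438 and 427 on Day 0, with overlapping groups and a log2 change of 0.05 (adjusted p = 0.773). Pax7 and Myf6 stayed below 100, at means of at most 4.04 on both days.

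Of the inhibitors of muscle differentiation, 9 of 21 were tested, of which 4 fell and 2 rose (1 at a level of 200). The Id genes fell together. Id2 was at 581, 528 and 649.8 on Day -1 and 202, 178 and 203 on Day 0, a 3.01-fold fall (log2 change -1.59, SE 0.11, adjusted p = 3.39e-06). Id3 was at 351, 259.9 and 346 on Day -1 and 137, 185 and 189 on Day 0, and Id1 at 481, 323 and 455 on Day -1 and 248, 289 and 266 on Day 0. Their groups did not overlap either, and the log2 changes were -0.91 (adjusted p = 9.92e-04) and -0.63 (adjusted p = 0.00603). The Id1 call was lost when all 24 arrays were fitted together (limma adjusted p = 0.0694) and with no level filter (0.0824). The Notch effectors behaved otherwise. Hey1 rose from 68.4 ± 8.15 to 130.1 ± 23.6 (SD, n = 3), and Hes1 had overlapping arrays at 229.8, 195 and 255 on Day -1 and 211, 229 and 219 on Day 0 (log2 change -0.04, limma adjusted p = 0.814). Snai2, a repressor that competes for E-boxes, rose from 567 to 862.

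**Figure D2:**
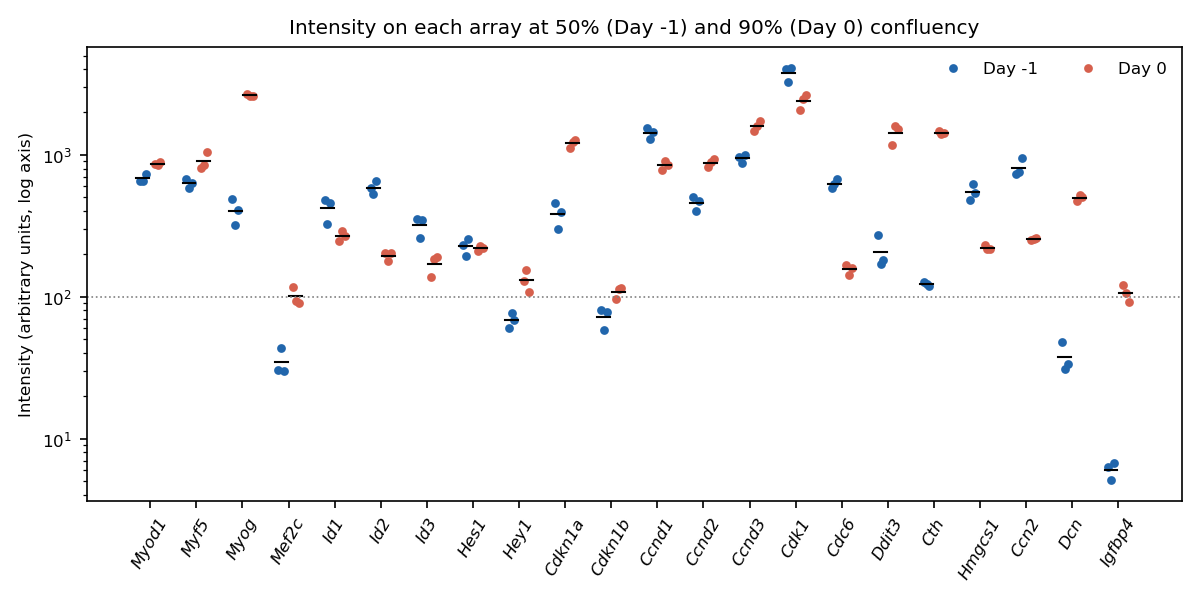
Intensity (log axis, arbitrary units) of 22 genes on each of the 6 arrays, with Day -1 in blue, Day 0 in red and group means as bars. The dotted line marks the level of 100. Myog, Cdkn1a, Ddit3, Cth, Dcn and Igfbp4 were higher on every Day 0 array, Id2, Cdc6, Hmgcs1 and Ccn2 lower, and the groups overlap for Hes1.

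Most genes of division fell over the same interval. Of 61 mitosis genes tested, 59 fell, and 51 of the 53 at 100 or more on both days. Of 48 DNA replication genes, 40 fell and 1 rose. Mki67, a mark of cycling cells, was at 1181, 1636 and 1362 on Day -1 and 404, 404 and 380.0 on Day 0 (log2 change -1.80, SE 0.13, adjusted p = 3.15e-06), and Cdk1, the kinase of mitotic entry, at 4005, 3244 and 4108 on Day -1 and 2072, 2486 and 2638 on Day 0 (log2 change -0.66, SE 0.13, adjusted p = 0.00221). The mitosis genes that did not pass were Spc24 (log2 change -0.27) and Cdc25b (-0.24). The replication gene that rose was Orc3, a subunit of the origin recognition complex, from 166 ± 7.93 to 222 ± 20.3 (SD, n = 3), a call that was lost without Day 0 replicate 2 (limma adjusted p = 0.0517).

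Among 24 regulators of the passage from G1 to S, 16 fell and 5 rose, or 3 with all 24 arrays in 1 fit or without Day 0 replicate 2. Cdc25a, the phosphatase that opens S phase, was at 132, 137 and 114 on Day -1 and 33.7, 34.7 and 32.3 on Day 0. The atypical E2F repressors E2f7 and E2f8 were at 683, 824 and 728 on Day -1 and 219, 199 and 232 on Day 0 and at 718, 764 and 843 on Day -1 and 268, 231 and 243 on Day 0. All 3 had separate groups and fell 3.79-fold, 3.43-fold and 3.13-fold. The S phase cyclin Ccne2 (log2 change -1.64) and Skp2, the ubiquitin ligase subunit that removes p27 (-1.39), also fell, whereas E2f1 did not pass (log2 change -0.24, adjusted p = 0.0812).

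The D cyclins, which couple growth factors to CDK4 and CDK6, split. Ccnd1 was at 1535, 1291 and 1456 on Day -1 and 776, 899 and 853 on Day 0 and fell (log2 change -0.76, SE 0.11, adjusted p = 3.07e-04), whereas its brightest probe set, with a log2 change of -0.36, did not pass. Ccnd2 was at 500.1, 401 and 472 on Day -1 and 821, 894 and 927 on Day 0, and Ccnd3, the D cyclin of muscle, at 971, 871 and 992 on Day -1 and 1459, 1598 and 1716 on Day 0. Both rose, by 0.95 (adjusted p = 9.33e-05) and 0.75 (adjusted p = 2.84e-04) on the log2 scale. Myc, a driver of growth, also rose, from 432 ± 10.5 to 669.6 ± 15.9 (SD, n = 3).

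Of the CDK inhibitors and pocket proteins, 7 of 10 were tested, of which 2 rose (1 with linear values, a level of 200, no level filter or the brightest probe sets) and 2 fell. Cdkn1a (ID 12575), which encodes p21, was at 457, 298 and 395 on Day -1 and 1118, 1238 and 1268 on Day 0, a 3.19-fold rise (log2 change 1.68, SE 0.15, adjusted p = 1.48e-05). Cdkn1b, which encodes p27, rose from 72.3 to 108, but its brightest probe set, with a log2 change of 0.29, did not pass, and the call was also lost with linear values, a level of 200 and no level filter (adjusted p from 0.0720 to 0.118). The genes that fell were Rbl1, which encodes the pocket protein p107 (467 to 248), and Cdkn2d (431 to 288). Cdkn1c stayed at the lower end of the scale, with a mean of 2.38 on both days.

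The promoters of these lists were searched for the sequences that factors of cycle and muscle genes are known to bind. Promoters were taken from a RefSeq table (GRCm38.p6) as 250 bases before and 50 after a transcript start, and each motif was searched on both strands as exact letters. Of the 7366 genes tested, 6057 had a promoter in the table. The CHR element TTTGAA, through which the DREAM complex and its MuvB core act on mitotic genes, was in 75% of 52 promoters of 50 mitosis genes, in 11.8% of 7801 promoters of the genes tested and in 17.9% of all 32851 promoters. The NF-Y box CCAAT was in 76.9% of the mitosis promoters, against 37.4% of both larger sets. The E2F site GCGGGAA was in 34.7% of 49 promoters of 40 replication genes and in 5.77% of the mitosis promoters, against 8.5% for the genes tested. The promoters of Cdk1 and Cdc6 are shown for a mitosis and a replication gene that fell, with CCAAT and TTTGAA of Cdk1 and GCGGGAA of Cdc6 in capitals. Each run holds the 250 bases before the start that the table lists, and another Cdc6 transcript starts further upstream.
Cdk1 (chr10:69352913-69353162, minus strand): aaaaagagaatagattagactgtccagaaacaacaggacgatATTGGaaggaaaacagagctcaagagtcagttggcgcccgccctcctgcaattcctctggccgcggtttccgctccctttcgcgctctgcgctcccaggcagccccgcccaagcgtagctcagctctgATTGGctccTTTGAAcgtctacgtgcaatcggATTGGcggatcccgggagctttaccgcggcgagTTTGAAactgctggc
Cdc6 (chr11:98907901-98908150, plus strand): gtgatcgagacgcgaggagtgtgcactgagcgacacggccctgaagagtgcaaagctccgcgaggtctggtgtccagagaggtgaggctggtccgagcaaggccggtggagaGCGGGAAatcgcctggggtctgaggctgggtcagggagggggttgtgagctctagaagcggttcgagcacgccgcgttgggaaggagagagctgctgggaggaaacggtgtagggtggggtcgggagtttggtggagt

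In Cdk1, CCAAT was found on the opposite strand, where the run reads ATTGG, 208, 80 and 48 bases before the start, and TTTGAA 71 and 15 bases before it. Cdc6, which loads the replicative helicase, has GCGGGAA 138 bases before the start, and its intensity was 580.1, 622 and 676 on Day -1 and 167, 142 and 159 on Day 0 (log2 change -2.004, SE 0.11, adjusted p = 6.21e-07). A match is a description of these letters and not a measured binding site.

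The genes of contraction rose in cells that were still in growth medium. All 30 sarcomere genes tested rose (median log2 change 3.30, or 2.76 with values under 50 raised to 50), and 13 of them reached 100 only on Day 0. The 17 at 100 or more on both days rose too. With linear values or a level of 200, 1 sarcomere gene fell, and 2 with no level filter. For calcium handling and the neuromuscular junction 16 of 18 genes tested rose, against 8 of 9 at 100 or more on both days. Tnni1, the troponin I of slow muscle, was at 123, 98.3 and 130.3 on Day -1 and 1873, 2174 and 1909 on Day 0 (log2 change 4.09, SE 0.13, adjusted p = 9.94e-09). Casq2, which stores calcium in the sarcoplasmic reticulum, was at 51.97, 64.9 and 64.4 on Day -1 and 842, 927 and 978 on Day 0, and Atp2a1, which pumps it there, at 17.6, 20.2 and 27.7 on Day -1 and 344, 359.6 and 322 on Day 0. Both sets of arrays were far apart, with log2 changes of 3.93 and 3.996, the latter 2.77 with values under 50 raised to 50. Ryr1, the release channel, rose by 2.75 on the log2 scale (adjusted p = 2.81e-07), or 1.86 with values under 50 raised. Des, the intermediate filament of myoblasts and muscle, was already high and rose only 1.33-fold (log2 change 0.41, SE 0.10, adjusted p = 0.00653).

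The subunits of the acetylcholine receptor differed. Chrng, the subunit of embryonic muscle, was at 2.85, 2.60 and 2.57 on Day -1 and 190.2, 218 and 170.4 on Day 0 (log2 change 6.17, SE 0.12, adjusted p = 3.50e-10). Its log2 change came to 1.94 on this probe set once values under 50 were raised to 50, and it was 4.42 on its brighter probe set. Chrnd was at 115, 145 and 134 on Day -1 and 399.8, 383 and 356 on Day 0 and rose 2.90-fold. Chrna1, the subunit that binds acetylcholine, was at 4522, 4871 and 4718 on Day -1 and 5596, 5813 and 5852 on Day 0 and rose only 1.22-fold (adjusted p = 0.0259), a call that was lost without replicate 1 or 3 of Day -1 or replicate 2 or 3 of Day 0 and with the replicate block (adjusted p from 0.0599 to 0.104). The receptor tyrosine kinase Musk (log2 change 0.03, adjusted p = 0.873) and its adaptor Dok7 (-0.39, adjusted p = 0.0871) did not pass.

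The E-box CAGCTG, to which MYOD and myogenin bind, was in 46.7% of 30 promoters of 25 sarcomere genes and in 42.9% of 14 promoters of 11 genes of calcium handling and the junction. It was in 13.9% of the promoters of the genes tested and in 16.3% of all. The TEAD site GGAATG was in 36.7% of the sarcomere promoters, against 11.4% for the genes tested. CTAAAAA, a part of the MEF2 site, was in 3.33% of the sarcomere promoters (1 of 30). It was in 7.14% of those of calcium handling and the junction (1 of 14), against 2.35% for the genes tested and 3.5% of all. The promoters of Chrng and Tnni1 are shown as 2 muscle genes that rose and hold the E-box CAGCTG. The table lists 2 promoters of Tnni1, of which 1 is shown. Capitals mark CAGCTG in both, 155 and 132 bases before the start in Chrng and 68 bases in Tnni1, and CAGGTG 224 bases before the start in Tnni1.
Chrng (chr1:87205561-87205810, plus strand): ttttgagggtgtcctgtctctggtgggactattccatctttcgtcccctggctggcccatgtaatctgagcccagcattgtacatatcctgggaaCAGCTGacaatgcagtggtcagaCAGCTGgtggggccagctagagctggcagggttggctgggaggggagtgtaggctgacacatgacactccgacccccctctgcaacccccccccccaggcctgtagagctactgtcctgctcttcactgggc
Tnni1 (chr1:135799171-135799420, plus strand): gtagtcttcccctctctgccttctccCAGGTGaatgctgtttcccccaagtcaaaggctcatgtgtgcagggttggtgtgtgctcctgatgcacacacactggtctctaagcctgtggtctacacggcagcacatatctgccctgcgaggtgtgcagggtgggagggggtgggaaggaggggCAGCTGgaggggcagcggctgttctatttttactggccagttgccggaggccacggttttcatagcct

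Of the genes of fusion and adhesion, 21 of 28 were tested, of which 6 rose and 5 fell, or 3 with all 24 arrays in 1 fit or without Day 0 replicate 3 and 2 with linear values. The rises were led by Mymx and Mymk, the fusogens of the myoblast membrane, with log2 changes of 5.003 and 3.81. Ncam1, a neural cell adhesion molecule of myotubes, was at 140.1, 180.0 and 185 on Day -1 and 375, 383 and 308 on Day 0 (log2 change 1.08, SE 0.14, adjusted p = 1.29e-04), and Itga7, the laminin receptor of muscle, at 1669, 2042 and 1589 on Day -1 and 2579, 2848 and 2884 on Day 0 (log2 change 0.66, SE 0.12, adjusted p = 0.00126). Cdh15, the cadherin of myoblasts, was at 1932, 2375 and 1973 on Day -1 and 2528, 2928 and 2813 on Day 0 and rose by 0.40 on the log2 scale (adjusted p = 0.0156), a call that was lost when replicate 3 of either day or replicate 2 of Day 0 was left out, with all 24 arrays in 1 fit and with no level filter (adjusted p from 0.0591 to 0.0920). Of the dystrophin-glycoprotein complex, which ties the cytoskeleton to the matrix, 8 of 10 tested genes rose and Sntb2 fell, a call lost with linear values (adjusted p = 0.0893) and not tested at a level of 200. Sgca was at 10.2, 11.9 and 19.6 on Day -1 and 393, 388 and 375 on Day 0, Sgce at 387, 307 and 364 on Day -1 and 725, 804 and 770.4 on Day 0 and Sspn at 118, 169.8 and 152 on Day -1 and 338, 340.1 and 343 on Day 0, and no array of 1 day reached into the other. Utrn, which encodes utrophin, did not pass (-0.09, adjusted p = 0.648).

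The cadherins and junction genes mostly fell from Day -1 to Day 0. Of 16 tested, 10 fell and 2 rose, against 9 and 2 of the 15 at 100 or more on both days. Cdh2, or N-cadherin, was at 809.5, 817 and 797 on Day -1 and 441, 399.9 and 429.9 on Day 0, a 1.91-fold fall (log2 change -0.93, SE 0.10, adjusted p = 3.32e-05). Gja1, the gap junction protein connexin 43, was at 2951, 3214 and 3609 on Day -1 and 2040.4, 2042 and 2104 on Day 0 and fell 1.57-fold (log2 change -0.66, SE 0.11, adjusted p = 6.18e-04). The groups of both genes were separate. Efnb2, an ephrin ligand (log2 change -0.73), and Pcdh7, a protocadherin (-0.72), fell. Jam2 of the tight junction family, counted above with fusion and adhesion, fell as well (-0.93, and -0.48 on its brightest probe set). Besides Cdh15, the gene that rose was Cdh13, a cadherin without a cytoplasmic part, at 162, 167 and 173 on Day -1 and 379, 467 and 426 on Day 0 (log2 change 1.34, SE 0.11, adjusted p = 7.76e-06).

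The targets of TEAD and YAP did not move one way. Of 19 tested, 8 rose and 5 fell. The rises were 5 with linear values or without Day 0 replicate 3 and 4 with no level filter or without Day 0 replicate 2, and the falls were 3 with linear values or a level of 200. Ccn2, a matrix-associated growth factor and standard readout of YAP, was at 731, 751 and 952 on Day -1 and 253, 254 and 261 on Day 0, a 3.15-fold fall (log2 change -1.65, SE 0.12, adjusted p = 3.69e-06). Ankrd1, another such readout, was at 4962, 5395 and 5360.4 on Day -1 and 6529, 6856 and 6628 on Day 0 and rose 1.27-fold (adjusted p = 0.0119, or 0.0602 without Day 0 replicate 2). Ccn1, a relative of Ccn2, was at 782, 841 and 962 on Day -1 and 1035, 1055 and 1128 on Day 0, with a log2 change of 0.32 (adjusted p = 0.0321) that was lost without Day -1 replicate 1 or any of the 3 Day 0 arrays and in the fit to all 24 arrays (adjusted p from 0.0568 to 0.141). A dimmer probe set of Ccn1 had a log2 change of -1.55. Tgfb2 rose from 64.7 to 124, Arhgap29 rose 1.56-fold, and Axl fell 1.48-fold. The site GGAATG was in 44.4% of 18 promoters of 15 of these genes, against 11.4% for the genes tested and 14.7% of all promoters. It was also in 36.7% of the sarcomere promoters.

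Of the Hippo pathway itself, 14 of 18 genes were tested, of which 5 fell, or 3 with no level filter, and 3 rose. Yap1 was at 202, 232 and 249 on Day -1 and 179.8, 160.5 and 141 on Day 0 (log2 change -0.51, SE 0.12, adjusted p = 0.00679), Amot, an angiomotin that binds YAP, at 229.8, 246 and 245 on Day -1 and 113, 132 and 99.6 on Day 0 (log2 change -1.07, SE 0.12, adjusted p = 5.56e-05), and Stk4, the kinase MST1, at 642, 906 and 837 on Day -1 and 510.1, 473 and 480.3 on Day 0 (log2 change -0.69, SE 0.13, adjusted p = 0.00179). The groups were separate for all 3, and Mob1b fell as well (-0.73, a call lost with no level filter at an adjusted p of 0.0529). Nf2, which encodes merlin, rose by 0.45, and the TEAD cofactors Vgll2 and Vgll3 rose by 0.65 and 0.96 on the log2 scale.

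The matrix genes changed in both directions. Of 33 collagen and matrix genes tested, 19 fell and 7 rose, or 4 without Day 0 replicate 3. Col6a3, a chain of collagen VI, was at 1054, 1325 and 972 on Day -1 and 340.5, 332 and 302 on Day 0 (log2 change -1.77, SE 0.13, adjusted p = 3.81e-06). Tnc, or tenascin C, was at 354, 436 and 346 on Day -1 and 109, 118 and 114 on Day 0 (log2 change -1.73, SE 0.12, adjusted p = 2.28e-06), and Vcan, or versican, at 447, 444 and 442 on Day -1 and 167, 182 and 147 on Day 0 (log2 change -1.43, SE 0.11, adjusted p = 4.62e-06). The days were separate for each. In contrast, the small leucine-rich proteoglycans Dcn and Ogn rose, whereas Lum did not reach the level for a test. Dcn reached that level only on Day 0. Dcn, or decorin, was at 48.3, 30.8 and 33.8 on Day -1 and 473, 521 and 501 on Day 0 (log2 change 3.75, SE 0.16, adjusted p = 9.84e-08), and Ogn at 269, 261 and 289.8 on Day -1 and 1071, 966 and 895 on Day 0 (log2 change 1.84, SE 0.11, adjusted p = 9.33e-07). Loxl1, which cross-links elastin, rose 2.10-fold. Col3a1 did not pass, at 813, 1028 and 842 on Day -1 and 889.8, 754 and 726 on Day 0 (adjusted p = 0.266). Of 12 proteases and inhibitors, 6 rose and 4 fell, or 2 with all 24 arrays in 1 fit, led by Mmp11, or stromelysin 3 (128 to 410.1), Timp2 (484 to 847) and Plat, the tissue plasminogen activator (260.0 to 429).

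The genes of the ATF4 and amino acid response rose almost throughout. ATF4 is a transcription factor that is translated when amino acids run short or proteins misfold, and it turns on amino acid synthesis, transport and tRNA charging. Of 32 genes tested, 29 rose and none fell, and of the 29 at 100 or more on both days 26 rose. The median log2 change was 1.04. Cth (ID 107869), which makes cysteine, was at 128, 123 and 119 on Day -1 and 1466, 1411 and 1415 on Day 0, an 11.6-fold rise (log2 change 3.54, SE 0.09, adjusted p = 3.09e-09). Ddit3 (ID 13198), the stress factor CHOP, was at 273, 169 and 182 on Day -1 and 1169.7, 1595 and 1528 on Day 0, a 6.97-fold rise (log2 change 2.80, SE 0.18, adjusted p = 2.14e-06). Trib3, an inhibitor of ATF4 and of AKT, was at 119, 127 and 86.3 on Day -1 and 591, 621 and 613 on Day 0 (log2 change 2.47, SE 0.14, adjusted p = 9.26e-07), and Slc6a9, a glycine transporter, at 63.1, 59.95 and 47.5 on Day -1 and 276, 297 and 297 on Day 0 (log2 change 2.36, SE 0.12, adjusted p = 4.88e-07). In each of these 4 genes every Day 0 array was above every Day -1 array.

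Atf4 itself was at 2586, 2296 and 2427 on Day -1 and 3779.9, 4455 and 4414 on Day 0 (log2 change 0.79, SE 0.11, adjusted p = 2.16e-04), its relative Atf5 rose 4.13-fold, and Asns, the asparagine synthetase, rose 2.17-fold. The amino acid transporter Slc38a2 did not pass and its arrays overlapped, at 3156, 4191 and 3606 on Day -1 and 3232, 3014 and 3340.3 on Day 0 (adjusted p = 0.228). The chaperones of the endoplasmic reticulum, which the unfolded protein response raises, gave another picture. Of 22 tested, 10 fell, or 6 without Day -1 replicate 3, and 4 rose. Hspa5, the chief chaperone, was at 3644, 4682 and 3879 on Day -1 and 3638, 3202 and 3132 on Day 0 (log2 change -0.29, adjusted p = 0.0724), and Sdf2l1 was among those that fell (log2 change -1.36). The 4 that rose included Atf6, a sensor of the response (1.30), and Herpud1, which serves degradation (1.05).

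Most genes of lipid synthesis fell. Of 26 genes of cholesterol and fatty acid synthesis tested, 24 fell and none rose, and of the 20 at 100 or more on both days 18 fell. Idi1, an isomerase of the isoprenoid pathway, was at 272, 316 and 331 on Day -1 and 50.9, 49.9 and 65.2 on Day 0, a 5.56-fold fall (log2 change -2.47, SE 0.13, adjusted p = 5.51e-07). Cyp51, a sterol demethylase, was at 162, 193 and 179.5 on Day -1 and 52.9, 48.3 and 50.01 on Day 0 (log2 change -1.82, SE 0.11, adjusted p = 9.33e-07), and Stard4, which carries cholesterol between membranes, at 171, 172 and 139.7 on Day -1 and 42.4, 42.1 and 42.7 on Day 0 (log2 change -1.92, SE 0.11, adjusted p = 9.24e-07). On Day 0 these 3 lay between 42.1 and 65.2, and no array reached into the range of Day -1. Hmgcs1, an early enzyme of the pathway, was at 482, 627 and 539.8 on Day -1 and 231, 216 and 217 on Day 0 (log2 change -1.31, SE 0.12, adjusted p = 1.40e-05), and Fasn, the fatty acid synthase, at 778, 1165 and 875 on Day -1 and 324, 324 and 303 on Day 0 (log2 change -1.55, SE 0.14, adjusted p = 1.82e-05). Scd1 did not pass (log2 change -0.22). Of 39 ribosome biogenesis genes, 25 fell and 1 rose. Polr1b, a subunit of RNA polymerase I, was at 176, 223 and 196 on Day -1 and 91.9, 82.2 and 81.4 on Day 0 (log2 change -1.21, SE 0.12, adjusted p = 2.24e-05), Nolc1, a nucleolar phosphoprotein, fell 2.04-fold, and Odc1, the first enzyme of polyamine synthesis, fell 2.43-fold. The exception was Nop14 (295 to 382), whose call was lost without Day 0 replicate 2 (limma adjusted p = 0.0620).

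Growth factor signalling genes showed both directions. Among 8 tested genes of the insulin-like growth factor system, the binding proteins Igfbp4, Igfbp5, Igfbp6 and Igfbp7 rose and Irs1 fell. Igfbp4 was at 6.36, 5.08 and 6.72 on Day -1 and 122, 107 and 91.1 on Day 0, with a log2 change of 4.14 (adjusted p = 2.29e-08) that came to 1.08 with values under 50 raised to 50. Igfbp5, a binding protein of differentiating muscle, was at 466, 534 and 453 on Day -1 and 1470.2, 1335 and 1334 on Day 0 (log2 change 1.51, SE 0.11, adjusted p = 3.18e-06). Irs1, the docking protein of the receptors, was at 1496, 1998 and 1577 on Day -1 and 946, 905 and 879 on Day 0 (log2 change -0.88, SE 0.12, adjusted p = 2.50e-04). Igf2 did not reach 100, with means of 2.24 on Day -1 and 75.8 on Day 0.

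Of 26 immediate early and serum-induced genes tested, 11 rose and 8 fell. Egr1, an early growth response factor, was at 434, 458 and 352 on Day -1 and 1438, 1557 and 1677 on Day 0 (log2 change 1.91, SE 0.12, adjusted p = 1.80e-06), and Btg2, an antiproliferative gene, at 71.8, 63.1 and 69.4 on Day -1 and 189, 232 and 201 on Day 0 (log2 change 1.60, SE 0.11, adjusted p = 3.01e-06). Atf3 rose as well (log2 change 1.10, limma adjusted p = 2.87e-05), and the genes that fell included Etv4, Fosl1 and Dusp5. Etv4 was at 318, 221 and 266 on Day -1 and 105, 127 and 123 on Day 0, Fosl1 at 995, 854 and 1020.2 on Day -1 and 396, 450.2 and 450.3 on Day 0 and Dusp5, a phosphatase that acts on ERK, at 300.3, 319.8 and 368 on Day -1 and 162, 157 and 151 on Day 0. The groups were separate in all of these, with log2 changes of -1.17, -1.14 and -1.07.

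Most genes linked to growth arrest rose. Of 18 p53 targets tested, 11 rose and 2 fell, and of 15 FOXO and growth arrest genes 12 rose and none fell. Gadd45a, which acts in DNA repair and arrest, was at 480.4, 426 and 417 on Day -1 and 2269, 2069 and 1976 on Day 0, a 4.77-fold rise (log2 change 2.26, SE 0.11, adjusted p = 2.51e-07). Mdm2, the p53 target that degrades p53, did not pass, at 379, 415 and 331 on Day -1 and 299, 341 and 338 on Day 0 (adjusted p = 0.178), and the p53 targets that fell were Aen and Tigar. The Aen call was lost on leaving out replicate 3 of either day or replicate 2 of Day 0, and that of Tigar in 10 alternatives, among them all 24 arrays in 1 fit, the replicate block, linear values and no level filter (adjusted p from 0.0675 to 0.219). Txnip, which holds back glucose uptake, was at 164, 227 and 201 on Day -1 and 623, 689 and 634 on Day 0 (log2 change 1.73, SE 0.13, adjusted p = 4.30e-06), and Map1lc3b, of autophagosomes, at 986, 933 and 1084 on Day -1 and 2356, 2416 and 2367 on Day 0 (log2 change 1.25, SE 0.10, adjusted p = 7.15e-06). Gas2 rose 2.31-fold, Fbxo32, the ubiquitin ligase atrogin-1, rose 2.56-fold, and Foxo3 did not pass (log2 change 0.26).

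The genes of oxidative metabolism passed at a share near that of all genes. Of 37 genes of oxidative metabolism tested, all at 100 or more on both days, 16 rose, 3 fell and 18 did not pass, with a median log2 change of 0.21. The rises were 9 without Day 0 replicate 2 and 10 without replicate 3, and the falls were 1 without replicate 3 of either day and 5 with no level filter. Cox5b, a subunit of cytochrome oxidase, was at 2753, 2025 and 2447 on Day -1 and 3403, 3519.7 and 3923 on Day 0 (log2 change 0.59, SE 0.13, adjusted p = 0.00339), and Ndufv1, of complex I, at 1055, 1002 and 1097 on Day -1 and 1497, 1539.7 and 1527 on Day 0 (log2 change 0.53, SE 0.09, adjusted p = 0.00110). Ogdh, Idh3a and Suclg2 of the citrate cycle fell. The Idh3a call was lost without replicate 3 of either day, and that of Suclg2 without Day -1 replicate 3 or any 1 of the Day 0 arrays, with the replicate block, at a level of 200 and on the brightest probe set (adjusted p from 0.0557 to 0.0930). Of 14 glycolysis genes, 4 fell and 2 rose, or 6 with no level filter, with Pfkm, the phosphofructokinase of muscle, higher by 1.01 on the log2 scale and the log2 change of Slc2a1, the basal glucose transporter, -0.65. Of 15 hypoxia-inducible genes 7 rose and 2 fell, against 4 and 2 by the brightest probe sets and 4 and 1 at a level of 200, among them Ndrg1 (1.73) and Vegfa, at 212, 265 and 224 on Day -1 and 345, 402 and 338 on Day 0 (log2 change 0.63, SE 0.12, adjusted p = 0.00162), higher, and Slc2a1 and Egln3 lower. The Egln3 call was lost without replicate 1 or replicate 3 of either day, with the replicate block, with linear values and with no level filter (adjusted p from 0.0523 to 0.138).

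Of the muscle splicing regulators, 11 of 18 were tested, of which 4 rose and 3 fell, against 2 and 3 by the brightest probe sets. Rbm24, which promotes muscle exons, was at 26.9, 15.7 and 12.7 on Day -1 and 157, 137 and 141 on Day 0, with a log2 change of 3.05 or, with values under 50 raised to 50, 1.53. Ptbp1, which represses such exons in myoblasts, was at 2239, 2400.2 and 2235 on Day -1 and 1264, 1376 and 1416 on Day 0 (log2 change -0.76, SE 0.10, adjusted p = 1.53e-04), Mbnl3, a muscleblind protein of undifferentiated cells, at 315, 368 and 403 on Day -1 and 138, 144 and 133 on Day 0 (log2 change -1.38, SE 0.11, adjusted p = 8.78e-06), and Celf1 fell 1.43-fold. The arrays of the days were separate for each of these. Of 9 interferon response genes tested, 6 rose and none fell. H2-D1, an MHC class I chain that shares sequence with related chains, was at 1213, 1088 and 1202 on Day -1 and 1846, 2506 and 2521 on Day 0 (log2 change 0.96, SE 0.13, adjusted p = 2.50e-04), and Xaf1, a proapoptotic gene, at 232, 148 and 246 on Day -1 and 507, 569.7 and 561 on Day 0 (log2 change 1.42, SE 0.18, adjusted p = 1.08e-04). A further 25 genes of that list stayed below 100.

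The markers of other cell types were checked. Of 9 tested myoblast markers, 5 rose, or 3 with no level filter or without Day 0 replicate 3, and 2 fell, the latter Met, the receptor for hepatocyte growth factor (379 to 162), and Sdc4, a heparan sulfate proteoglycan (289.9 to 175). None of 9 cardiac, 7 endothelial and 7 leukocyte markers reached 100. Of 10 fibroblast markers, 1 reached it, Dcn, while Pdgfra, Thy1 and Lum stayed at means of at most 27.5. Of the adipocyte markers, Pparg and Lpl reached it and rose, by 0.45 and 0.78 on the log2 scale, and Adipoq and Fabp4 stayed at means of at most 5.09. Of the smooth muscle markers, Acta2 (0.61) and Smtn (-0.36) passed, the latter not without Day -1 replicate 3 or Day 0 replicate 1 and neither with no level filter, while Tagln and Actg2 stayed at means of at most 64.6 and Myh11, Cnn1, Myocd and Synm at means of at most 3.88. Of 10 osteoblast or chondrocyte markers, 6 stayed below 100 and 1 was tested and did not pass (log2 change -0.27). Without Day -1 replicate 2, 1 marker of that list was called lower. The part of other cells in the changes was not tested. Nefm and Nefl were high in sparse cells, whereas the neural markers Syp, Rbfox3, Gfap, Olig2 and Sox10 stayed at means of at most 6.08 and Map2 did not pass (0.25). Gapdh, a common reference gene, was at 8024, 7955 and 8233 on Day -1 and 7979, 8677 and 8864 on Day 0 (adjusted p = 0.541). The probe sets of Actb disagreed, with a log2 change of 1.29 on one and -0.08 on the brightest. The former passed, but not when replicate 2 or replicate 3 of either day was left out, and with linear values or no level filter the brighter probe set stood for the gene.

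The change from Day -1 to Day 0 was set against that from Day 1 to Day 2, when the cells were in differentiation medium with reduced serum, for which the sources give different concentrations. The 2 intervals share no array, and the difference of the changes was tested in 1 fit of limma to all 24 arrays. Over the 13331 probe sets of that fit, 39.8% differed. Of the 7366 genes, 1800 (24.4%) changed more positively in the first interval and 1334 (18.1%) more negatively. Each gene stood by its most significant probe set of the first interval, a choice that favours a larger first change. Of the 30 sarcomere genes, 22 were more positive and 2 more negative, with medians of 3.30 and 1.01 on the log2 scale. These 30 reached 100 on Day -1 or Day 0, 13 of them only on Day 0, a choice that favours a rise in the first interval. Of the 17 at 100 or more on both days, 12 were more positive and 1 more negative, against 23.9% and 17.2% of 6403 genes. Over genes at 100 or more at any of the 4 time points, by the brightest probe set, these counts were 25 and 5 of 41, against 23% and 18.2% of 7718 genes. With values under 50 raised to 50 they were 21 and 3 of 30. Tnni1 changed by 4.09 and then 1.09 (difference 3.001, SE 0.17, adjusted p = 9.53e-10), with the same difference when values under 50 were raised to 50. Chrng changed by 6.17 and then 1.75 (adjusted p = 9.53e-10), but with values under 50 raised by 1.94 and then 1.75, a difference of 0.18 that did not pass (adjusted p = 0.575). Acta1, the skeletal actin, changed by 3.44 and then 0.44 (adjusted p = 9.53e-10), and Actc1, Mylpf and Mybph differed likewise.

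Of the 32 genes of the ATF4 response, 22 changed more positively in the first interval and 1 more negatively, with medians of 1.04 and 0.35. Among the 29 at 100 or more on both days, the counts were 19 and 1. By the brightest probe set, over genes at 100 or more at any of the 4 time points, they were 18 and 1 of 32. Of the 37 oxidative genes, 19 were more positive and 1 more negative, or 17 and 1 by the brightest probe set. The reverse held for the matrix and for lipid synthesis. Of 33 matrix genes 17 changed more negatively in the first interval and 5 more positively, with medians of -0.47 and 0.32. Of 26 lipid synthesis genes these counts were 14 and 1, with medians of -0.89 and -0.55, below 0 in both intervals. For genes at 100 or more on both days, these counts were 16 and 4 of 30 matrix genes and 9 and 1 of 20 lipid synthesis genes. By the brightest probe set at any of the 4 time points, they were 19 and 5 of 40 and 12 and 1 of 26. Ccn2 changed by -1.65 and then 1.49 (difference -3.15, SE 0.32, adjusted p = 1.02e-06). Dhcr7, of cholesterol synthesis, changed by -1.36 and then 0.93 (adjusted p = 3.80e-06). Cdc25a changed by -1.92 and then -0.07, and Odc1 by -1.28 and then 0.25. With values under 50 raised to 50, Cdc25a changed by -1.35 and then 0, and Dhcr7 by -1.13 and then 0.93 (difference -2.06). Cdc25a was already between 32.3 and 34.7 on Day 0, so a further fall could be hidden by the background. Egln3 and Sc5d also differed. Of 19 TEAD and YAP targets, 7 were more negative in the first interval and none more positive, and 5 of the 15 at 100 or more on both days. The mitosis list had medians below 0 in both intervals, -1.17 and -1.58, and 13 of its 61 genes changed more positively and 1 more negatively in the first, against 12 and none of the 53 at 100 or more on both days. The 13 are 21.3% of the list, below the 24.4% of all genes, and the 1 is 1.64%, against 18.1%. When values under 50 were raised to 50, the counts were 19 and 7 of 61.

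**Figure D3:**
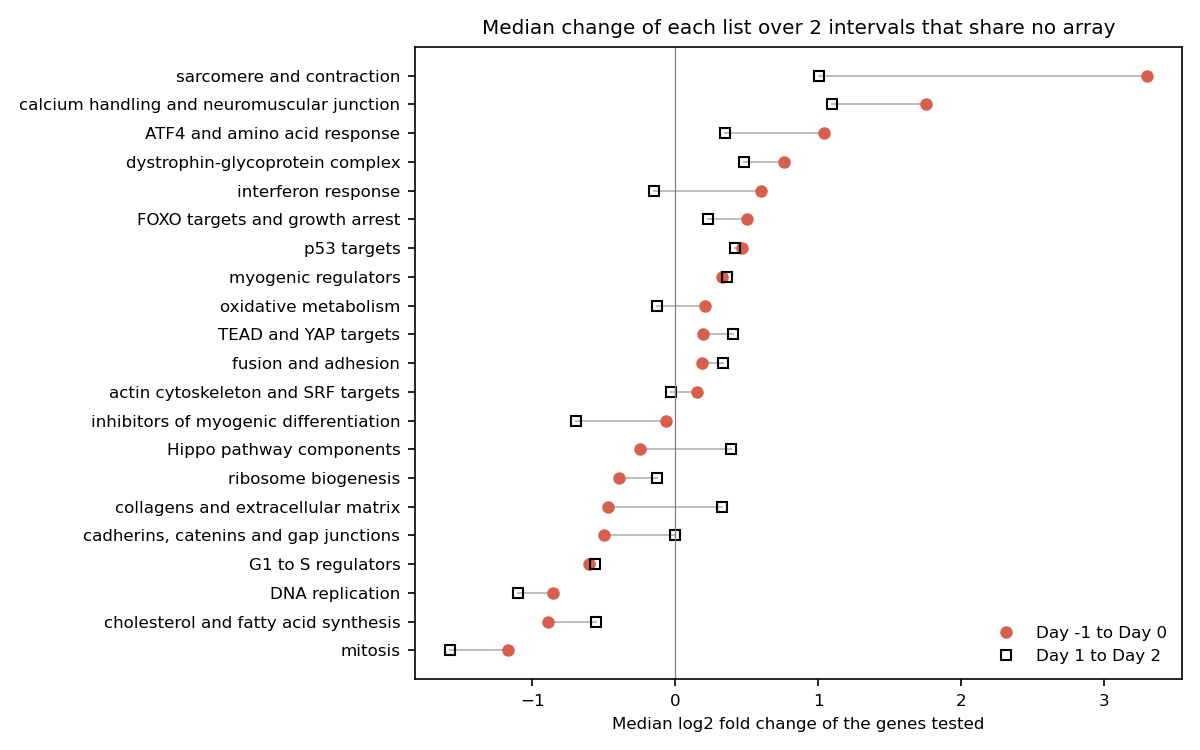
Median change of the genes tested (log2 fold change, x axis) in each list (y axis) from Day -1 to Day 0 (red circles) and from Day 1 to Day 2 (open squares). The sarcomere list stands at 3.30 and 1.01, the collagen and matrix list at -0.47 and 0.32 and the mitosis list at -1.17 and -1.58.

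Levels at later time points are given as means with their SD over 3 arrays and with no test, since a comparison with Day 0 would share its arrays. Myog was at 2621 ± 67.02 on Day 0, 2428 ± 146 at 6 hours after induction, 5499 ± 703 on Day 1 and 9948 ± 725 on Day 3. Cdkn1a was at 383 ± 80.4 on Day -1, 1208 ± 79.6 on Day 0, 686 ± 120.3 at 6 hours and 1581 ± 173 on Day 1. Both stayed above their Day -1 level at every later time point.

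Other genes stood closer to their Day -1 level than to that of Day 0 at 6 hours, or beyond it. Cth was at 123 ± 4.55, 1431 ± 30.6 and 30.1 ± 12.7 on Day -1, on Day 0 and at 6 hours, and Ddit3 at 208 ± 56.6, 1431 ± 229 and 155 ± 38.8. Car6, at 495 ± 75.8 on Day 0, was at 2.35 ± 0.724 at 6 hours, and Dcn, at 498 ± 24.2, was at 56.2 ± 3.84. Genes that had fallen by Day 0 are given in the same order. Cdc6 was at 626 ± 48.1, 156 ± 12.8 and 564 ± 94.9 over these 3 time points, Id2 at 586 ± 60.9, 195 ± 14.01 and 957 ± 111, Hmgcs1 at 549.9 ± 72.9, 221 ± 8.30 and 764 ± 183, and Ccn2 at 812 ± 122, 256 ± 4.26 and 1185 ± 129. Induction brought a change to medium with reduced serum, whose part in these levels was not tested.

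**Figure D4:**
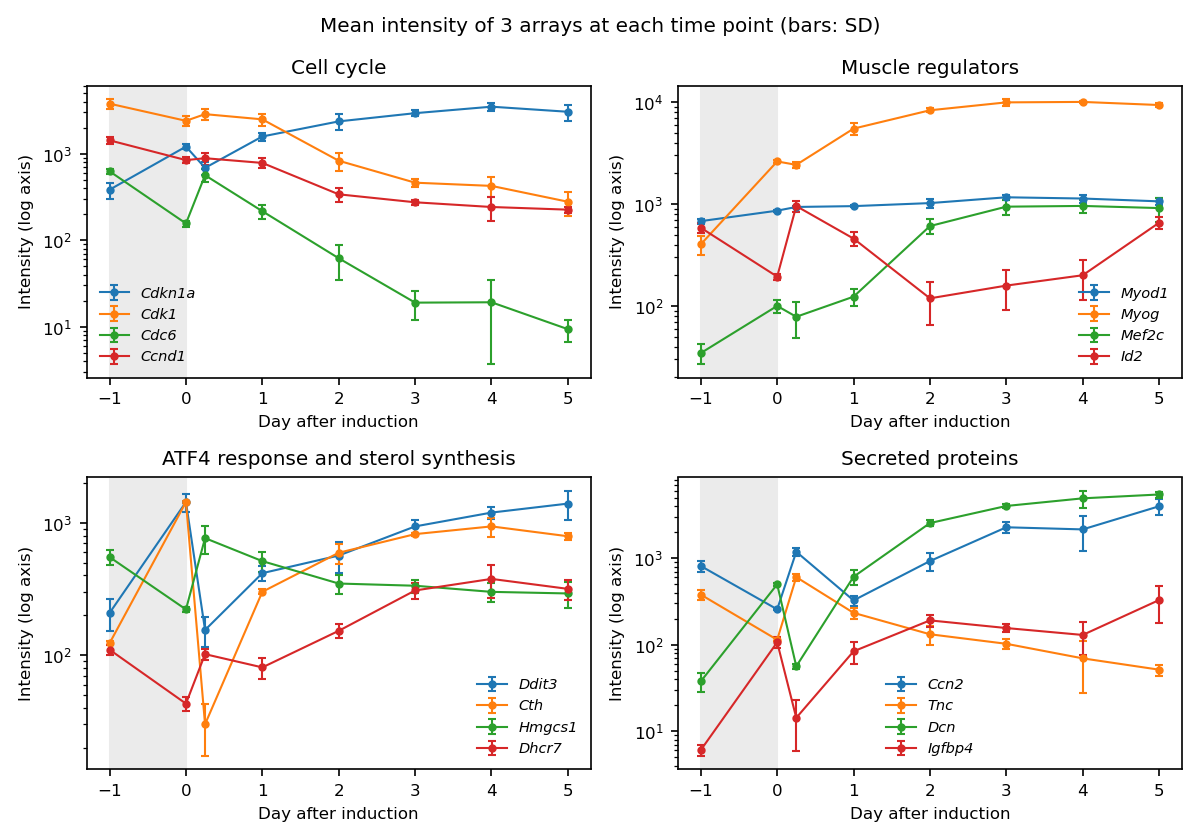
Mean intensity of 3 arrays (log axis, arbitrary units, bars SD) for 16 genes at each of the 8 time points in 4 panels, with the interval from Day -1 to Day 0 shaded. Myog and Cdkn1a stay above their Day -1 levels after Day 0, while at 6 hours Cth, Ddit3, Dcn and Igfbp4 are lower than on Day 0 and Cdc6, Id2, Hmgcs1 and Ccn2 higher.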

How the data were processed

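RNA was extracted with an RNeasy Midiprep kit, labelled with biotin and hybridised to Affymetrix mouse arrays. By the study's methods, the authors computed GC-RMA values, raised them to base 2 and scaled each array, and the deposited table holds the intensity of 45101 probe sets on a linear scale. The submitters' notes also name MAS5, with no role given. Trimmed means of the 6 arrays lay between 149 and 156, and the number of arrays limits the precision. GC-RMA compresses dim probe sets towards a common background (array medians 3.64 to 3.83), so large folds from the background are uncertain.

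The fit (limma 3.58.1, R 4.3.3, two-sided moderated t with Benjamini-Hochberg adjustment) used log2 intensities of the 6 arrays over the 12614 probe sets whose mean reached 100 in either group. Probe sets follow the platform annotation, with 34958 of 1 gene, 932 of several and 9211 of none, and only those of 1 gene were named. Of 2899 genes with several tested probe sets, 16 had calls in opposite directions. The interval difference was fitted to all 24 arrays over 13331 probe sets. Replicate numbers came from the labels and were not used to pair the arrays in the main fit. No 2 arrays held identical values. The fit was also run on simulated arrays with independent noise for each probe set and few changed probe sets. Such arrays differ from these, and no result here rests on them.

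Members, lists and tests were chosen with earlier results of these data known. Named genes were the 15 largest rises and falls with separate groups, up to 6 members a list with the lowest adjusted p, a set of textbook regulators, and the 6 list members a direction with the lowest adjusted p for the interval difference. Others, among them Ddit3, Atf4, Atf5, Asns, Fasn, Atf6, Herpud1, Chrna1, Chrnd, Ryr1, Mef2a, Ankrd1, Nefl and Ndrg1, were chosen after their values were seen. Counts for genes at 100 or more on both days and interval counts by other rules for entry were added with the values known. Some list members are not analysed here. The alternatives tried were linear values, a single fit over every array, a block for replicate numbers, levels of at least 200 or none, quantile normalization, values under 50 raised to 50, an intensity trend, a 2-fold threshold, the brightest probe set, and leaving out each array.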

Additional observations from a re-analysis of the deposited data

How the results depend on the processing

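With a 2-fold threshold, 605 probe sets were higher and 538 lower, against 3141 and 3277, and 438 and 357 genes. Leaving out 1 array at a time gave 2293 to 3272 probe sets higher and 2447 to 3513 lower, 1603 to 2245 genes higher and 1575 to 2201 lower, and for the interval difference 2102 to 3463 probe sets more positive and 1656 to 3119 more negative. The other counts over all probe sets or genes stayed within 1.5 times. Counts of list members did not always do so, and of 720 compared over 9 alternatives other than the 2-fold threshold 56 moved by more, as did 35 of 480 with an array left out. The r of deviations from the group mean was -0.352, -0.167 and 0.165 for equal replicate numbers, and -0.319 to 0.378 for unequal ones. These values cannot show whether the numbers pair the arrays, since the deviations of the 3 arrays of a group depend on one another. With the replicate block, 2784 probe sets were higher and 2977 lower, 1930 genes higher and 1879 lower, and in the interval difference 2742 probe sets more positive and 2196 more negative. Rises made up 48.3% to 53.4% of calls over the alternatives other than the 2-fold threshold, where they made up 55.1%. Of 232 named genes, 215 passed, and 176 of these kept direction and call in every alternative that tested them apart from the 2-fold threshold.

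Directions turned for Actb (-0.080 with linear values, with no level filter and with the brightest probe set), Fzd2 (-0.19 at a level of 200 and with the brightest probe set), Ccn1 (-1.55 with no level filter, on another probe set) and Qk (-0.092 with the brightest probe set). Among genes that had not passed they turned for Gapdh (-0.054 with quantile normalization), Mdm2 (0.047 with the brightest probe set), and, leaving out an array, Col3a1 (-0.27 to 0.091), Hes1 (-0.14 to 0.054), Mdm2 (-0.29 to 0.13), Musk (-0.035 to 0.13), Slc38a2 (-0.28 to 0.13), Tcf3 (-0.070 to 0.16) and Utrn (-0.21 to 0.088). Another probe set stood for the gene in each of these except Hes1, Musk and Utrn, for which the cause was not tested. Signal near the background limits genes such as Car6, Igfbp4, Mef2c and Rbm24.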
